A study of Homo sapiens with 8 samples.

Results

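The genes described are a set of 10 from the transforming growth factor beta (TGF-beta) and bone morphogenetic protein (BMP) pathways, chosen by gene symbol. They are the ligand genes TGFB1, TGFB2, TGFB3, INHBA and BMP4, the response genes ID1, ID2 and ID3, and the inhibitory SMAD genes SMAD6 and SMAD7. Of the 10, 9 had a row in the table, among 17492 genes tested in all, and TGFB2 was not analysed here. No filter on low values was applied, so all 9 entered the test.

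The samples were 8 tumours of SkMel147, an established human melanoma cell line, implanted subcutaneously in BALB/c nude mice, which lack a thymus. Mice drank doxycycline to switch on Omomyc in the tumour cells, or its vehicle, from a tumour volume of 100 mm3, and tumours were taken after 7 days. Omomyc is an engineered dominant-negative fragment of MYC. There were 4 vehicle and 4 doxycycline tumours, each on 1 array, and all 8 came from the same cell line. The labels name neither the expression vector nor the age of the mice. Doxycycline and Omomyc were present in the same tumours, so effects of the drug itself and of the transgene cannot be told apart. The labels call the replicates biological and say no more about how they were raised.

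The values are log2 expression made by RMA, in which a difference of 1 is a doubling. Probes are human, so mouse host RNA is seen at most through cross-hybridisation. The medians of the arrays lay between 5.02 and 5.13. Vehicle replicate 2 and doxycycline replicate 4 stood apart by raised lower quartiles, 3.20 and 3.23 against 3.03 to 3.10 in the other arrays. Of the markers of the melanocyte lineage, SOX10 lay between 5.997 and 6.92 and MITF between 4.47 and 5.86. The pigment genes MLANA, PMEL, TYR and TYRP1 lay between 1.35 and 4.04 in all tumours, below every array's median. Whether such dim rows were above background is unknown without scanner values. In bulk tumours, fewer cells of a type and less RNA per cell cannot be told apart.

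TGF-beta ligands are secreted in a latent form, held by a propeptide and by latent TGF-beta binding proteins in the matrix, and act after release. Ligands bind paired serine/threonine kinase receptors, which phosphorylate SMAD2 and SMAD3 for TGF-beta and activin, or SMAD1, SMAD5 and SMAD9 for BMPs. These join SMAD4 and enter the nucleus. The ID genes are classical direct targets of BMP signalling and encode helix-loop-helix proteins without a DNA-binding region, which tie up E proteins. SMAD6 and SMAD7 are induced by the pathway and feed back on the receptors. In melanoma the pathway is known for restraint of melanocyte growth and for invasive, matrix-producing states.

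The promoters of the 4 genes that rose (TGFB1, TGFB3, ID1 and ID3) and of ID2, whose values ran the other way, are shown as the 250 bases upstream of the RefSeq start. RefSeq (GRCh38.p14) lists windows for all 10 genes, and TGFB3 has 2 starts, both shown. Capitals mark 5 motifs searched on both strands: the E-box CACGTG of MYC and MAX, the BMP-type SMAD motif GGCGCC, the SMAD box CAGAC, the TATA box TATAAA and CCAAT. Matches on opposite strands may overlap and then form 1 run of capitals.
TGFB1, minus strand, chr19:41353923-41354172: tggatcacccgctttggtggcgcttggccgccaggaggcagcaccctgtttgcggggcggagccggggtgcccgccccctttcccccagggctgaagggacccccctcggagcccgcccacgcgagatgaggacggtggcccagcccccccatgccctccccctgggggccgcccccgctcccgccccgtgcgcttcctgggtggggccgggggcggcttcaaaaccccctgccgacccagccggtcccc
TGFB3 upstream start, minus strand, chr14:75983012-75983261: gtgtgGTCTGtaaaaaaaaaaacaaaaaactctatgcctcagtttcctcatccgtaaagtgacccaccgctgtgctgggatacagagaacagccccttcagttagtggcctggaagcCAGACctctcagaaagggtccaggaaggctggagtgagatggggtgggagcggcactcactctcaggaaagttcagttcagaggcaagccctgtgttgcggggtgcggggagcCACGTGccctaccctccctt
TGFB3 downstream start, minus strand, chr14:75981996-75982245: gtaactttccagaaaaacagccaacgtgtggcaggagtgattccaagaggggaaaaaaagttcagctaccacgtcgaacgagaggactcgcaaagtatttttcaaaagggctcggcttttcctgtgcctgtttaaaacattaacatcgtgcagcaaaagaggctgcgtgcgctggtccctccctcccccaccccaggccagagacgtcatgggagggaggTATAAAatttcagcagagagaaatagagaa
ID1, plus strand, chr20:31605039-31605288: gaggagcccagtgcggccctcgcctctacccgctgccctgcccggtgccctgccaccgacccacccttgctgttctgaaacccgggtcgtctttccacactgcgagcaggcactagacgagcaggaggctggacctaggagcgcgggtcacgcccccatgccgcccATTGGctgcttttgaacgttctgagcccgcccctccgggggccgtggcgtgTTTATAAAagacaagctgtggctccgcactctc
ID3, minus strand, chr1:23559502-23559751: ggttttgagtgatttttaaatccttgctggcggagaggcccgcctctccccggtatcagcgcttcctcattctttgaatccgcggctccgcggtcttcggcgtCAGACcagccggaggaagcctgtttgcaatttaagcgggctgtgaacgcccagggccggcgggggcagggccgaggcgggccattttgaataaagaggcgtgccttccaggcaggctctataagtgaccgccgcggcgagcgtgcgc
ID2, plus strand, chr2:8681806-8682055: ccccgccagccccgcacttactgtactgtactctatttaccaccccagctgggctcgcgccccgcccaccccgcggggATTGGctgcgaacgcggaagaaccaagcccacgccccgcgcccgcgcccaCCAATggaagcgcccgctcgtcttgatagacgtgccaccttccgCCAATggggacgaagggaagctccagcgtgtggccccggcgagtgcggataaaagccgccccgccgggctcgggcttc

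The TGFB1 window held none of the 5 motifs. The upstream TGFB3 window held CACGTG beginning 20 bases before the start, a motif found in 6.34% of the 35116 RefSeq windows of this length, and the SMAD box at 245 and 133 bases before it. The downstream TGFB3 window held neither, and had TATAAA at 30 bases before its start. The SMAD box stood in 38.0% of all windows, and that of ID3 held it once, 147 bases before the start. The ID1 window held overlapping TATAAA matches at 33 and 31 bases before the start (10.7% of all windows hold one) and a CCAAT match at 84. The ID2 window held 3 CCAAT matches, at 172, 122 and 78 bases before the start, and no TATAAA, and CCAAT stood in 32.0% of all windows. The motif GGCGCC, found in 16.4% of all windows, was in none of the windows shown. A match is a description of these letters and not of binding.

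Doxycycline tumours had more TGFB1, TGFB3, ID1 and ID3 transcript than vehicle tumours, and no significant change of INHBA, BMP4, ID2, SMAD6 or SMAD7. The increases were 3.17-fold for TGFB1, 2.76-fold for TGFB3, 2.00-fold for ID1 and 4.25-fold for ID3. Thus 4 of 9 genes rose and 0 fell in limma's test across all genes, at an adjusted p under 0.05, where 4.75% of all 17492 genes rose and 6.03% fell (10.8% in either direction). The count of rises rested on single tumours. It was 1 without vehicle replicate 1 or doxycycline replicates 1 or 3, 2 without vehicle replicate 3 or doxycycline replicates 2 or 4, 3 without vehicle replicate 2 and 4 without vehicle replicate 4. At an unadjusted p under 0.05, ID2 was the one gene of the set lower with doxycycline. The median log2 fold change of the 9 was -0.06, beside 0.04 over all genes, and its sign hung on single tumours. It was 0.39 and 0.32 without doxycycline replicates 1 and 2, 0.16 without vehicle replicate 2 and -0.21 without vehicle replicate 1, and 0.18 when each array was centred on its ribosomal protein genes, here called ribosomal centring. For 3 of the 9, all with higher values in doxycycline, the groups did not overlap, and 17.7% of all genes had groups without overlap. The plot of values by tumour shows all 9 genes.

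Among the ligands, TGFB1 encodes the prototype TGF-beta. Its log2 level was 8.34, 8.07, 8.22 and 8.21 in vehicle replicates 1 to 4 and 9.97, 9.98, 10.01 and 9.54 in doxycycline replicates 1 to 4. Every doxycycline tumour lay more than 1 log2 unit above every vehicle tumour, and doxycycline replicate 4 was the lowest of its group. The means were 8.21 ± 0.11 and 9.87 ± 0.22 (SD, n = 4), with a log2 fold change of 1.66 ± 0.17 (SE; limma adjusted p = 0.000219). The call held with each single tumour left out (log2 fold change 1.62 to 1.77) and under each alternative setting run.

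TGFB3, a second TGF-beta isoform, was at 3.17, 3.89, 2.06 and 3.87 in vehicle and at 4.75, 5.14, 4.55 and 4.41 in doxycycline tumours. Vehicle replicate 3 was the lowest, and the vehicle group spread wider (SD 0.86) than the doxycycline group (SD 0.32). The log2 fold change was 1.46 ± 0.37 (SE; limma adjusted p = 0.0297). These are dim values, and the filter that drops the dimmest 40% of genes removed TGFB3. It lost its call in 4 of 8 fits with 1 tumour left out, those without vehicle replicate 1 or doxycycline replicates 1, 2 or 3 (limma adjusted p of 0.0771, 0.0600, 0.0822 and 0.0571). TGFB1 and TGFB3 did not change by detectably different amounts. The within-array difference TGFB1 minus TGFB3 averaged 4.96 ± 0.91 (SD) with vehicle and 5.16 ± 0.25 (SD) with doxycycline (n = 4; p = 0.714 by an exact, two-sided permutation test; adjusted p = 0.714 over the 5 pairs of paralogues compared).

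INHBA encodes the beta A subunit of activin A, a ligand that signals through SMAD2 and SMAD3 as TGF-beta does. It was at 4.75, 5.85, 5.05 and 5.13 in vehicle tumours and at 3.79, 3.98, 5.53 and 7.24 in doxycycline tumours. Doxycycline replicates 1 and 2 lay below every vehicle tumour and doxycycline replicate 4 above all, so the SD was 1.61 with doxycycline and 0.47 with vehicle. The log2 fold change of -0.06 ± 0.64 (SE) had a 95% interval from -1.48 to 1.36, so a change of more than 2-fold either way is within its error. Vehicle replicate 2 and doxycycline replicate 4, the arrays with raised lower quartiles, were the highest of their groups, and without both the value was -0.55 (limma adjusted p = 0.499). BMP4, a BMP ligand that induces ID genes, was at 7.34, 6.91, 8.24 and 8.43 in vehicle and 7.71, 7.32, 6.47 and 6.89 in doxycycline tumours. The groups overlapped, and the log2 fold change of -0.63 ± 0.37 (SE) did not pass (limma adjusted p = 0.340).

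Of 27 other measured genes in the list of further ligands of the superfamily, BMP1 rose and none fell. Over all genes, 4.75% rose and 6.03% fell. BMP1, despite its name, encodes the procollagen C-proteinase, a metalloprotease that cleaves collagens, chordin and latent TGF-beta binding protein. It was at 6.76, 7.01, 7.15 and 6.96 in vehicle and 7.67, 8.46, 8.67 and 8.47 in doxycycline tumours, with no overlap. The log2 fold change was 1.35 ± 0.23 (SE; limma adjusted p = 0.00378). Ligands near the threshold, picked out after their values were seen, were BMP2 at -1.02 ± 0.29 and GDF11 at 0.66 ± 0.21 (SE; limma adjusted p of 0.0516 and 0.0725). GDF11 passed as a rise under ribosomal centring and a filter on dim genes (adjusted p of 0.0220 and 0.0381). BMP2, the closest relative of BMP4, passed as a fall under quantile normalization, a filter on dim genes, a trended robust prior and array weights (adjusted p of 0.0433, 0.0310, 0.0208 and 0.0490).

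Of 19 extracellular regulators, a list that holds latent TGF-beta genes and BMP antagonists, 3 rose (LTBP3, LTBP2 and THBS1) and 1 fell (LRRC32), where 4.75% of all genes rose and 6.03% fell. LTBP3, which is secreted with latent TGF-beta, was at 6.08, 6.17, 5.66 and 6.58 in vehicle and 7.68, 7.14, 7.70 and 7.50 in doxycycline tumours, a rise of 1.38 ± 0.23 (SE; limma adjusted p = 0.00302). LTBP2, a matrix relative that does not bind latent TGF-beta, rose by 0.92 ± 0.18 (SE; adjusted p = 0.00795). THBS1 encodes thrombospondin 1, an activator of latent TGF-beta. It was at 8.46, 7.81, 8.34 and 7.87 in vehicle and 9.95, 9.12, 8.81 and 9.65 in doxycycline tumours, a rise of 1.26 ± 0.27 (SE; adjusted p = 0.0137). In each of LTBP3, LTBP2 and THBS1 every doxycycline tumour lay above every vehicle tumour. The latent TGF-beta binding protein genes LTBP1 and LTBP4 did not pass, at -0.43 ± 0.26 and 0.63 ± 0.23 (SE; limma adjusted p of 0.361 and 0.115). LTBP4 rose under ribosomal centring (0.87, adjusted p = 0.0402). LRRC32 encodes GARP, which tethers latent TGF-beta to the cell surface. It was at 4.36, 5.24, 4.55 and 4.98 in vehicle and 3.70, 3.57, 3.86 and 3.88 in doxycycline tumours, so the groups did not overlap. It fell by 1.03 ± 0.22 on the log2 scale (SE; limma adjusted p = 0.0123), a call lost under ribosomal centring (-0.79, adjusted p = 0.0524). The median of the list was 0.19. The BMP antagonists in it (NOG, CHRD, CHRDL1 and GREM1, named after their values were seen) did not pass, but under ribosomal centring CHRD rose (0.78, adjusted p = 0.0336).

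Among 13 measured receptor genes, BMPR1B and ACVR2A rose and none fell, with a list median of 0.42. The shares over all genes were 4.75% rising and 6.03% falling. BMPR1B encodes a type I BMP receptor. It was at 4.18, 3.94, 4.17 and 4.32 in vehicle and 6.51, 5.59, 5.62 and 5.67 in doxycycline tumours, a 3.24-fold rise (log2 fold change 1.70 ± 0.23, SE; limma adjusted p = 0.000966). Doxycycline replicate 1 was well above the other 3, which themselves lay more than 1 unit above the highest vehicle tumour. ACVR2A, a type II receptor for activins and BMPs, was at 6.27, 6.51, 6.93 and 6.64 in vehicle and 7.44, 7.32, 7.46 and 7.43 in doxycycline tumours. It rose by 0.83 ± 0.18 (SE; adjusted p = 0.0147), and the doxycycline values spread little (SD 0.06). The TGF-beta receptors TGFBR1 and TGFBR2 differed by 0.67 ± 0.22 and 0.52 ± 0.20 (SE) and the co-receptor gene ENG by -0.65 ± 0.19 (SE), none of which passed (limma adjusted p of 0.0853, 0.124 and 0.0573). All 3 were picked out after their values were seen. They passed under some settings, TGFBR1 and TGFBR2 as rises with a trended robust prior (0.0266 and 0.0480) and ENG as a fall with the same prior (0.0122).

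No signal-carrying SMAD gene passed the test, of 6 measured, where 10.8% of all genes passed in either direction. Under ribosomal centring SMAD3 rose (0.69, limma adjusted p = 0.0287). SMAD4, the shared partner, averaged 7.75 ± 0.21 with vehicle and 7.89 ± 0.06 with doxycycline (SD, n = 4), a difference of 0.13 with a 95% interval from -0.24 to 0.50. The inhibitory SMAD genes did not pass either. SMAD7, which blocks TGF-beta and BMP receptors, was at 5.73, 5.91, 6.23 and 5.73 in vehicle and 5.50, 5.71, 5.28 and 5.93 in doxycycline tumours. Its groups overlapped, with a log2 fold change of -0.29 ± 0.20 (SE; limma adjusted p = 0.425) and a 95% interval from -0.74 to 0.15. SMAD6, which acts mainly on BMP receptors, was at 2.18, 2.53, 2.63 and 2.60 in vehicle and 2.47, 2.55, 2.37 and 2.10 in doxycycline tumours. These are dim values near the lower end of the table, and their difference was -0.11 ± 0.18 (SE; adjusted p = 0.775), with a 95% interval from -0.51 to 0.29. The pair did not change by detectably different amounts (0.18 ± 0.23, SE; exact two-sided permutation p = 0.457).

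Of 12 intracellular regulators, PMEPA1 and ZFYVE9 fell and none rose, where 6.03% of all genes fell and 4.75% rose. PMEPA1, a TGF-beta-induced gene whose product dampens SMAD signalling, was at 9.62, 9.09, 9.61 and 9.92 in vehicle and 8.93, 8.53, 8.999 and 8.57 in doxycycline tumours. It fell by 0.80 ± 0.22 on the log2 scale (SE; limma adjusted p = 0.0374). ZFYVE9, or SARA, which presents SMAD2 and SMAD3 to the receptor, fell by 0.83 ± 0.24 (SE; adjusted p = 0.0462). Groups did not overlap for either gene, but each lost its call in 6 of 8 fits with 1 tumour left out (limma adjusted p up to 0.102 and 0.124) and under ribosomal centring (0.166 and 0.171). BAMBI, a decoy receptor induced by the pathway and named after its value was seen, was higher in every doxycycline tumour but did not pass (0.68 ± 0.25, SE; adjusted p = 0.121).

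**Figure D1:**
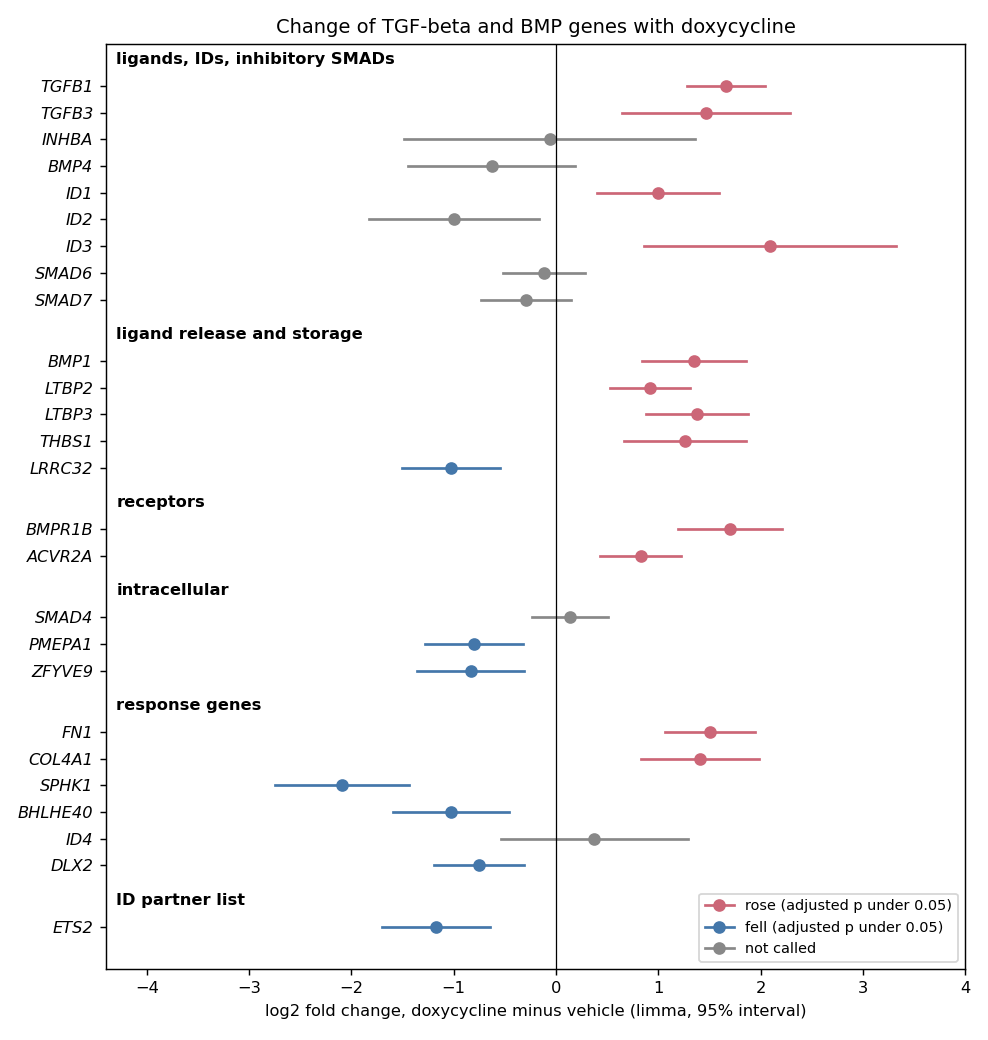
Log2 fold change (doxycycline minus vehicle, x axis) with limma's 95% interval for the 9 genes and for pathway genes named by rule, 4 tumours a group; red rose, blue fell and grey did not pass at an adjusted p under 0.05. TGFB1 at 1.66, BMPR1B at 1.70 and FN1 are among the rises, SPHK1 at -2.09 lies lowest, and SMAD4, SMAD6 and SMAD7 lie near 0.

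Of the 3 ID genes, ID1 and ID3 rose and ID2 did not pass. ID1, an inhibitor of E proteins linked to growth and dedifferentiation, was at 7.08, 6.65, 6.63 and 7.84 in vehicle and 7.99, 7.87, 8.38 and 7.96 in doxycycline tumours. The groups were separated by a small gap, because vehicle replicate 4 lay close to doxycycline replicate 2. ID1 rose by 1.00 ± 0.27 (SE; limma adjusted p = 0.0397). It lost its call with array weights (adjusted p = 0.0514) and in 7 of 8 fits with 1 tumour left out (adjusted p up to 0.115), and kept it without vehicle replicate 4 (1.26, adjusted p = 0.00679).

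ID3 was at 4.27, 5.75, 3.69 and 6.69 in vehicle and 7.24, 6.55, 7.45 and 7.50 in doxycycline tumours. Vehicle tumours spread over 3 log2 units (SD 1.37, against 0.44 with doxycycline), and vehicle replicate 4 lay above doxycycline replicate 2. The log2 fold change was 2.09 ± 0.56 (SE; limma adjusted p = 0.0366). The call was lost with a trended robust prior (adjusted p = 0.0558) and in 5 of 8 fits with 1 tumour left out, those without vehicle replicates 1 or 3 or doxycycline replicates 1, 3 or 4 (adjusted p up to 0.106). The fold change was 1.62 without vehicle replicate 3 and 2.62 without vehicle replicate 4. With the arrays of raised lower quartile (vehicle replicate 2, doxycycline replicate 4) left out together, ID1 was at 0.89 and ID3 at 2.20, and neither passed (limma adjusted p of 0.130 and 0.0887).

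ID2 was at 5.89, 7.15, 6.98 and 7.31 in vehicle and 6.77, 5.40, 5.33 and 5.83 in doxycycline tumours. Vehicle replicate 1 was low and doxycycline replicate 1 high in its group, and 3 of 4 doxycycline tumours lay below every vehicle tumour. The fit gave -0.99 ± 0.38 (SE), short of the threshold (limma adjusted p = 0.128). ID2 passed as a fall without vehicle replicate 1 (-1.31, adjusted p = 0.0464) and without doxycycline replicate 1 (-1.31, adjusted p = 0.0353). ID4, the fourth family member, was at 5.47 ± 0.84 and 5.85 ± 0.60 (SD, n = 4) and did not pass (adjusted p = 0.654).

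Differences within each array compared the ID genes directly. ID2 minus ID3 was 1.62, 1.40, 3.29 and 0.62 in vehicle and -0.47, -1.15, -2.12 and -1.67 in doxycycline tumours. Every doxycycline tumour lay below every vehicle tumour, and the sign of the difference itself has no meaning, because levels of different probes cannot be compared. The change was -3.08 ± 0.66 (SE; p = 0.0286 by the exact two-sided permutation test, the minimum with 4 tumours a group). ID1 minus ID2 changed by 1.99 ± 0.55 (SE), with every doxycycline tumour above every vehicle tumour by the same exact test (p = 0.0286), though vehicle replicate 1 and doxycycline replicate 1 nearly met, at 1.20 and 1.21. Under quantile normalization the groups overlapped (exact p = 0.0571). ID1 minus ID3 changed by -1.09 ± 0.57 (SE; exact two-sided permutation p = 0.171). Over the 5 pairs compared, the adjusted p of ID2 against ID3 and of ID1 against ID2 was 0.0714 by the exact permutation test, which does not pass.

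**Figure D2:**
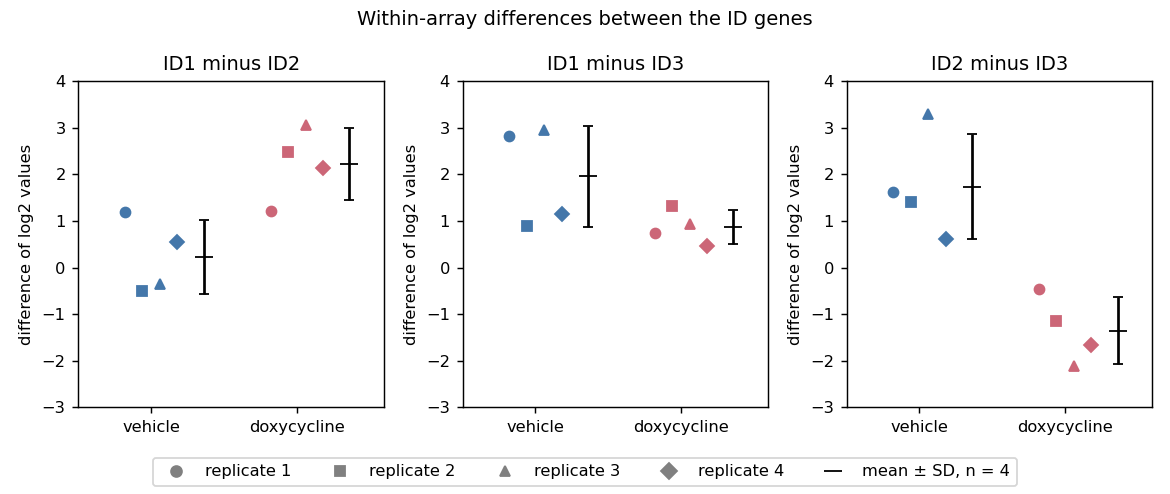
Within-array difference of log2 values (y axis) for each pair of ID genes in 4 vehicle (blue) and 4 doxycycline (red) tumours; symbols are tumours and bars are mean ± SD. ID2 minus ID3 is lower in every doxycycline tumour than in any vehicle tumour, while ID1 minus ID3 overlaps; the position of 0 has no meaning between different probes.

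Of 25 measured genes that TGF-beta is known to induce, 7 rose and 3 fell, with a list median of 0.39. The all-gene shares were 4.75% rising and 6.03% falling. FN1, the gene of the matrix protein fibronectin, was at 9.76, 9.96, 10.08 and 10.17 in vehicle and 11.36, 11.20, 11.93 and 11.48 in doxycycline tumours. Its groups stood more than 1 unit apart, a 2.83-fold rise (95% interval of the log2 fold change 1.06 to 1.94; limma adjusted p = 0.000853). COL4A1, a basement membrane collagen gene, rose by 1.41 ± 0.26 (SE; adjusted p = 0.00620), and LTBP3 and LTBP2, given above, belong to this list too. The other rises, named after their values were seen, were the smooth muscle gene TAGLN (1.17 ± 0.27, SE), the collagen gene COL1A1 (1.25 ± 0.28, SE) and the adhesion docking gene NEDD9 (0.79 ± 0.17, SE), with limma adjusted p of 0.0201, 0.0150 and 0.0145. TAGLN lost its call in 4 of 8 fits with 1 tumour left out (adjusted p up to 0.0658), and NEDD9, at 1.97 and 2.75 on average, lay below every array's lower quartile.

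The falls in that list were SPHK1, BHLHE40 and PMEPA1. SPHK1, sphingosine kinase 1, was at 6.90, 7.34, 6.53 and 6.51 in vehicle and 4.62, 4.14, 4.64 and 5.51 in doxycycline tumours. It was 4.26-fold lower with doxycycline (-2.09 ± 0.30, SE; limma adjusted p = 0.00134). BHLHE40, a transcription factor gene also induced by hypoxia, was at -1.02 ± 0.26 (SE; adjusted p = 0.0281), a call that ended in 7 of 8 fits with 1 tumour left out (adjusted p up to 0.0733) and under ribosomal centring (0.0640). So members of 1 target list moved in opposite directions.

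Of 16 measured BMP response genes, including ID4, none rose and DLX2 fell, with a list median of 0.11, counts near the shares of all genes (4.75% and 6.03%). This list leaves out ID1, ID2, ID3, SMAD6 and SMAD7, given above, of which ID1 and ID3 rose. DLX2, a homeobox gene, fell by 0.75 ± 0.20 on the log2 scale (SE; limma adjusted p = 0.0351), a call lost with a trended robust prior (0.0664), under ribosomal centring (0.0971) and in 6 of 8 fits with 1 tumour left out (adjusted p up to 0.104). Under ribosomal centring RUNX2 of this list rose (1.24, limma adjusted p = 0.0461). Of the 6 genes listed with ID partners, ETS2 fell, by 1.17 ± 0.24 (SE; adjusted p = 0.0106). It encodes an ETS factor, a class that ID proteins can bind. The E protein genes TCF3 and TCF4, named after their values were seen, were at -0.33 ± 0.15 and 1.19 ± 0.43 (SE) and did not pass (adjusted p of 0.229 and 0.116), but TCF4 rose under ribosomal centring (1.43, adjusted p = 0.0485). Over the 8 pathway lists, which share some genes, 11 of 116 measured genes rose and 7 fell, 9.48% and 6.03% of them, beside 4.75% and 6.03% of all genes, but 21 and 2 under ribosomal centring.

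Most markers of fibroblasts had higher means with doxycycline. Probes are human, so mouse fibroblasts are seen at most through cross-hybridisation. Whether tumour cells or host cells gave these signals was not tested. Of 9 measured fibroblast markers, 4 rose (COL1A1, COL1A2, PDGFRA and POSTN, all named after their values were seen) and none fell. The groups overlapped for POSTN, where vehicle replicate 4, at 6.41, lay above doxycycline replicate 4, at 5.93. THY1 alone had a lower mean with doxycycline, 5.30 against 6.35 with vehicle. Its log2 fold change of -1.05 missed the threshold for a call (p of 0.0844 after adjustment in limma's test). COL1A2 and POSTN each lost the call in 2 of 8 fits with 1 tumour left out and PDGFRA in 1 (limma adjusted p up to 0.0564, 0.0538 and 0.0520). The mean of the list was 5.31, 5.71, 5.84 and 6.57 in vehicle and 7.91, 7.05, 6.74 and 6.86 in doxycycline tumours, with no overlap. Vehicle replicate 4, the vehicle tumour with the highest list mean, was also that with the highest ID1, ID2, ID3 and BMP4. Its PDGFRA, POSTN and LUM were 5.34, 6.41 and 8.38, against highest values of 3.38, 3.48 and 7.05 in the other vehicle tumours. DCN was also highest there, at 5.86 against 4.69 in vehicle replicate 2. COL1A1, COL1A2, FAP and THY1 were not highest in vehicle replicate 4, at 6.19, 7.09, 8.36 and 6.31. Their highest values in the other vehicle tumours were 6.66, 7.34, 8.95 and 6.87. PDGFRB was not highest in vehicle replicate 4 either, at 5.23 beside 5.54 in vehicle replicate 3. TGFB1 was not raised in vehicle replicate 4, at 8.21. COL1A1 stands in both the fibroblast and the TGF-beta response list. The fibroblast genes FAP and LUM, the brightest of the list, did not pass (limma adjusted p of 0.662 and 0.0747), LUM passing under ribosomal centring and a filter on dim genes. The part of these markers in the changes of the ligands, ID genes and matrix genes was not tested.

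The other marker lists (melanocyte included) gave 1 call among 46 measured genes, a rise of LYZ in the macrophage list. Over all genes, 10.8% were called in either direction. Means of the macrophage list were 3.75 to 4.16 in vehicle and 3.96 to 4.66 in doxycycline tumours, and those of the mural list 4.37 to 4.50 and 4.46 to 5.34. Endothelial means were 3.92 to 4.14 and 3.81 to 4.48, neutrophil means 2.35 to 2.79 and 2.25 to 2.76, and keratinocyte means 2.60 to 2.93 and 2.91 to 3.18. In each of these lists the groups overlapped. The brightest members did not pass, among them CD68 and TYROBP (adjusted p of 0.128 and 0.785), CNN1 and ACTA2 (0.0762 and 0.820, CNN1 passing as a rise under ribosomal centring, a filter on dim genes and array weights), EGFL7 and TIE1 (0.882 and 0.698), CSF3R and MPO (0.806 and 0.874), and KRT5 and KRT14 (0.323 and 0.302). The macrophage list had a median log2 fold change of 0.50, beside 0.04 over all genes. In it CD14 was near the threshold, at 1.82 ± 0.52 (SE; limma adjusted p = 0.0507). PTPRC, CD163 and TYROBP ran the other way and did not pass. The melanocyte list had means of 3.82 to 4.22 and 3.91 to 4.09, with 0 of 9 called, SOX10 and MITF among them (limma adjusted p of 0.478 and 0.812).

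**Figure D3:**
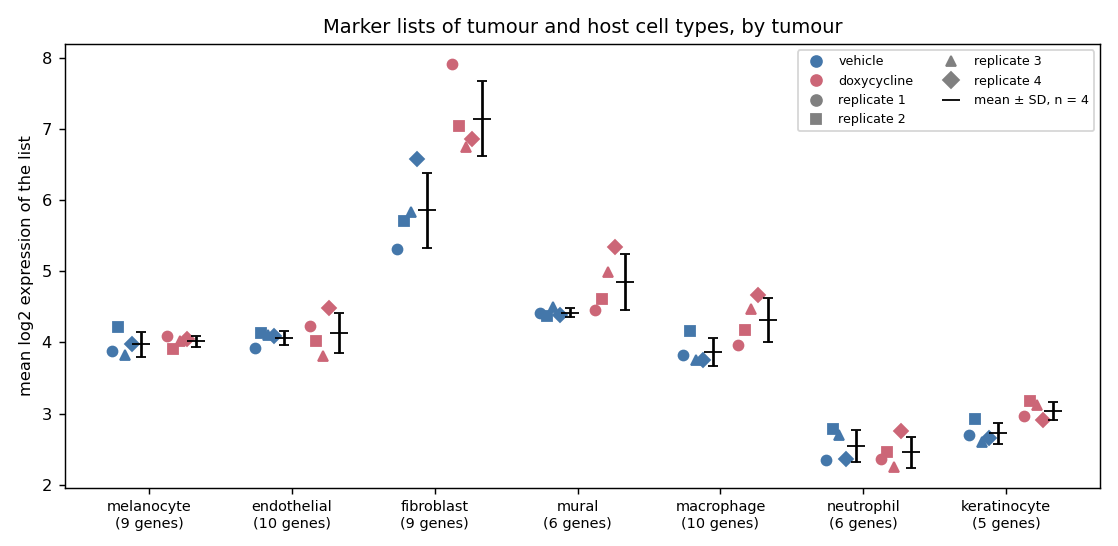
Mean log2 expression (y axis) of 7 marker lists (x axis, with the number of measured genes) in 4 vehicle (blue) and 4 doxycycline (red) tumours; symbols are tumours and bars are mean ± SD. The fibroblast list is the one with a gap between the groups, from 6.57 in vehicle replicate 4 to 6.74 in doxycycline replicate 3. Probes are human, so mouse host cells are seen at most through cross-hybridisation.

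The genes with profiles most like those that rose were found by the root mean square difference of log2 values over the 8 arrays, after each gene's mean was subtracted. The profile of TGFB1 was closest to PDLIM1 (0.09) and MFGE8 (0.16), beside a median distance of 0.89 from TGFB1 over all genes. PDLIM1 encodes an actin-associated adaptor. TGFB3 was closest to DDX60 and DHX58 (0.30 and 0.32), both RNA helicase genes, ID1 to CPEB3 and NBR1 (0.20 and 0.21), and ID3 to BBOX1 and USP18 (0.20 and 0.52). The median distance from all genes was 0.96 for TGFB3, 0.69 for ID1 and 1.38 for ID3. That the neighbours also differ between the groups follows from how they were chosen.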

How the data were processed

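Total RNA of 8 tumours was hybridised to 1 Affymetrix array each, per the labels. The deposited values are log2 expression from RMA (named in the submitters' processing notes), a method that subtracts background, makes the arrays' distributions alike and summarises probes per row. A shift shared by most genes would be partly removed by it, and no source used here gives its version or probe definition. Rows were named through the platform annotation. Of 18569 rows, 17511 had 1 symbol, all matched by gene identifier to RefSeq (GRCh38.p14), and 1058 had none and were not named. For 17 genes with several rows the one with the highest mean was kept, which left 17492 genes. Coordinates are given for RefSeq promoters, not for array rows, whose build is not stated here.

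Doxycycline was compared with vehicle with limma 3.58.1 under R 4.3.3 (lmFit, eBayes; two-sided), and p-values were Benjamini-Hochberg adjusted across all genes, with calls at 0.05. Differences within arrays between paralogues were tested by exact two-sided permutation (scipy 1.17.1, Python 3.11.15). Of 7 pairs planned, 5 could be tested. The genes and lists were chosen with earlier results of these data known, so lists are given as counts and medians without a test of their own. Named genes were the 10 of the set, up to 4 called genes with the smallest p per list and direction, ID4 and SMAD4, the 2 nearest profiles of each called gene of the set, and the 2 brightest markers per list. Every other gene in the text, marked there or not, was picked after seeing values.

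Alternatives were quantile normalization, centring on array medians or on 36 ribosomal protein genes (called ribosomal centring), a filter dropping the dimmest 40% of genes, a trended robust prior, limma's array weights, averaging a gene's rows, a block for the replicate number, a fold of at least 1.5 for counts, and each array left out. Leaving out 2 arrays together was added after seeing the data. On simulated data for this comparison over 17492 genes, with 200 changed, the fit recovered 46% of changes of 1 and 95% of changes of 2 on the log2 scale, with 0 of wrong sign and 11 false calls. In the data 1884 genes were called, more than were changed in the simulation, so recovery in the data may differ. The number of arrays limits the precision.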

Additional observations from a re-analysis of the deposited data

Results flagged for a closer look

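In 4 of the groups of 4 tumours checked, 1 tumour lay far from the other 3. Chance alone flags about 1 group in 20, and 124 groups were checked. TGFB1 was 9.54 in doxycycline replicate 4 and 9.97 to 10.01 in the other doxycycline tumours. BMPR1B reached 6.51 in doxycycline replicate 1, beside 5.59 to 5.67 elsewhere in the group. TGFBR1 was 9.34 in doxycycline replicate 4 against 8.97 to 9.03, and FAP was 10.06 in the same tumour against 8.32 to 8.62. TGFB1 and BMPR1B kept their calls without these tumours (limma log2 fold changes of 1.77 and 1.48, adjusted p of 0.000327 and 0.000833).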

How the results depend on the processing

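TGFB1 kept its direction and its call under every alternative run, with log2 fold changes of 1.58 to 1.90. Centring each array on its ribosomal protein genes shifted the all-gene median (0.04) to 0.28. It gave 1753 rises and 676 falls instead of 830 and 1054, so falls made up 27.8% of calls instead of 55.9%. In the pathway lists 21 then rose and 2 fell, in place of 11 and 7, and INHBA and SMAD6 turned to 0.18 and 0.13, neither called. With array weights ID1 was at 0.92 (limma adjusted p = 0.0514), and with a trended and robust prior ID3 was at 2.09 (0.0558), both not passing. With quantile normalization ID1 minus ID2 changed by 1.95 (exact permutation p = 0.0571). The cause of these changes was not tested.

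With 1 or 2 tumours left out, TGFB3 was between 1.07 and 1.78 (1.68 at most with 1 left out), ID1 between 0.86 and 1.26, ID2 between -1.31 and -0.83, ID3 between 1.62 and 2.62 and INHBA between -0.76 and 0.61 (0.39 at most with 1 left out). Without vehicle replicate 2 and doxycycline replicate 1, ID1 was at 0.88 and ID3 at 2.28, and without vehicle replicate 2 and doxycycline replicate 4 at 0.89 and 2.20, none passing. Of the set, 1 to 4 genes rose and 0 to 1 fell, over all genes 503 to 727 rose, and in the pathway lists 3 to 6 fell. Fits with fewer arrays have fewer degrees of freedom.

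Replicate numbers are shared by the groups, but same-numbered tumours did not deviate together (correlations of deviations between -0.16 and 0.03). The labels do not say whether the numbers pair the samples, and these correlations cannot exclude it. With the number as a block, 502 genes rose, 4 pathway genes fell, and ID1 at 1.00 had a limma adjusted p of 0.0750. The paired exact p of ID1 minus ID2 (1.99) and ID2 minus ID3 (-3.08) was 0.125, the smallest that 4 pairs allow. Depth has no counterpart on arrays, and without scanner values the signal of dim rows such as SMAD6 over background is unknown.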
